A study of Rattus norvegicus with 6 samples.

Results

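The genes of the unfolded protein response and of protein folding in the endoplasmic reticulum (ER) were examined in rat primary chondrocytes. The members were the rows of the deposited table whose gene symbol was on a list of 38 such genes. All 38 symbols were found among the 18420 genes of the table, and all 38 passed the filter on low counts that left 13250 genes for the test. The chondrocytes were wild-type cells from male Sprague-Dawley rats. In the TNF-α group (n = 3) they received 10 ng/mL TNF-α and were harvested at 6 h. In the TNF-α+NFL group (n = 3) they received the same 6 h of TNF-α, then Nanofat lysate (NFL, prepared by freezing and thawing the stromal vascular fraction of adipose tissue) for 24 h, and were harvested at 30 h. Both groups therefore carried the inflammatory stimulus, the untreated group of the study was not analysed here, and the effects of NFL and of the later harvest cannot be told apart. Every direction below follows the deposited labels and column names. The headings of a supplementary table of the study, read as written, imply that the groups are exchanged, and if they were, every sign given here would turn.

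Secreted and membrane proteins fold in the ER with the help of chaperones, lectins and disulfide isomerases, and chondrocytes load this machinery heavily because they secrete collagen and other matrix proteins. When unfolded proteins accumulate, 3 sensors act. IRE1 (gene Ern1) splices the mRNA of the transcription factor XBP1, ATF6 is cleaved into a transcription factor, and PERK (gene Eif2ak3) phosphorylates the initiation factor eIF2α, which favours translation of ATF4. XBP1 and ATF6 raise chaperone genes through ER stress response elements, and ATF4 raises amino acid and stress genes, among them Ddit3, which encodes CHOP. Counts per gene measure the amount of these mRNAs and neither the splicing of Xbp1 nor the cleavage, phosphorylation or translation of the proteins.

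The promoter sequences of the members show the elements by which the response reads its genes, and they are given here for the members that hold one. RefSeq promoter windows on the rat build GRCr8, each of 300 bases around the annotated transcription start, were at hand for 30 of the 38 members. Atf6, Derl1, Ern1, Fkbp10, Manf, Pdia3, Pdia6 and Sec61a1 had no window. The ER stress response element (ERSE), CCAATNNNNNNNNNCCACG on either strand, was found in 8 of the 30 members (26.7%) and in 21 of all 27457 genes with a window (0.0765%). These 8 members were Hspa5, Hsp90b1, Creld2, Canx, Xbp1, Dnajc3, Calr and Derl3, and Hsp90b1 held 2 sites. The sites are written 5′ to 3′ on the strand that reads CCAAT, with the fixed bases in capitals.
Hspa5: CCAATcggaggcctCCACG
Hsp90b1 site 1: CCAATcgaaaggagCCACG
Hsp90b1 site 2: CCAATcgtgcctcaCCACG
Creld2: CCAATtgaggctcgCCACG
Canx: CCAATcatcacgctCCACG
Xbp1: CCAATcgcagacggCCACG
Dnajc3: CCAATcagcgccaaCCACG
Calr: CCAATcagggtcgaCCACG
Derl3: CCAATaaggaagtcCCACG

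The shorter element ERSE-II, ATTGGNCCACG on either strand, was found in 3 members (10%) and in 0.0619% of all genes with a window. It shares CCACG with ERSE and carries CCAAT in reverse. Hyou1 held 2 sites, and the first of them overlapped the only UPRE (TGACGTGG, an XBP1 element present in 0.681% of all genes with a window) among the members. The fixed bases are in capitals.
Hyou1 site 1: ATTGGcCCACG
Hyou1 site 2: ATTGGgCCACG
Dnajb11: ATTGGcCCACG
Herpud1: ATTGGgCCACG

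The CARE element TTNCATCA, which is bound by ATF4 with a C/EBP partner, was found in 3 members (10%) and in 4.16% of all genes with a window.
Chac1: TTgCATCA
Trib3: TTaCATCA
Herpud1: TTgCATCA

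The sequences before the start site are shown for 4 members because these 4 stand for the branches that the results below follow, namely the chaperone Hspa5 (chr3:38452766-38453015, plus strand), the factor Xbp1 (chr14:84604373-84604622, plus strand), the degradation gene Herpud1 (chr19:10614708-10614957, minus strand) and the ATF4 target Chac1 (chr3:126795881-126796130, plus strand). Each is written on the gene's own strand and ends at the last base before the annotated start, with whole elements in capitals.
Hspa5: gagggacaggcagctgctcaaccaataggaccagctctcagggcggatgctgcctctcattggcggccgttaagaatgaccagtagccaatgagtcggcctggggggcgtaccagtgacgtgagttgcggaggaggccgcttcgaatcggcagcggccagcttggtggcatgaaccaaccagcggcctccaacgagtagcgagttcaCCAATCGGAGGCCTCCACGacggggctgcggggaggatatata
Xbp1: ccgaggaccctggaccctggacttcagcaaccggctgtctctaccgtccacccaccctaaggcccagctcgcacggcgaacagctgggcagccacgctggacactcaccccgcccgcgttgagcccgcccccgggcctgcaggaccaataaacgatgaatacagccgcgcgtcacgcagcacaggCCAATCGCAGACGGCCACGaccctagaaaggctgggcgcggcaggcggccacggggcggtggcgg
Herpud1: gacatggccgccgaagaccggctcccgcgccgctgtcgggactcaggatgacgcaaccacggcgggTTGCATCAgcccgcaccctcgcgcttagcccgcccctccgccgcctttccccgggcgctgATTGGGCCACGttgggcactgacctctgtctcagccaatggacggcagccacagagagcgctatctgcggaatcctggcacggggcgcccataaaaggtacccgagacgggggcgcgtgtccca
Chac1: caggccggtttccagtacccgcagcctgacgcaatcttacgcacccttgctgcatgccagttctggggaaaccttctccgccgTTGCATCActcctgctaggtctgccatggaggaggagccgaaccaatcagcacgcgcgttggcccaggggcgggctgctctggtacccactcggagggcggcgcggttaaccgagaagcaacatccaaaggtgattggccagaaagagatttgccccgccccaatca

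In the Hspa5 window the ERSE began 43 bases before the start, and in the Xbp1 window it began 65 bases before it. Herpud1 held both kinds of element, a CARE at 184 bases and an ERSE-II at 124 bases before the start. The single CARE of Chac1 began 167 bases before the start. A match is a description of the letters in the window and does not show that a factor was bound there.

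**Figure D1:**
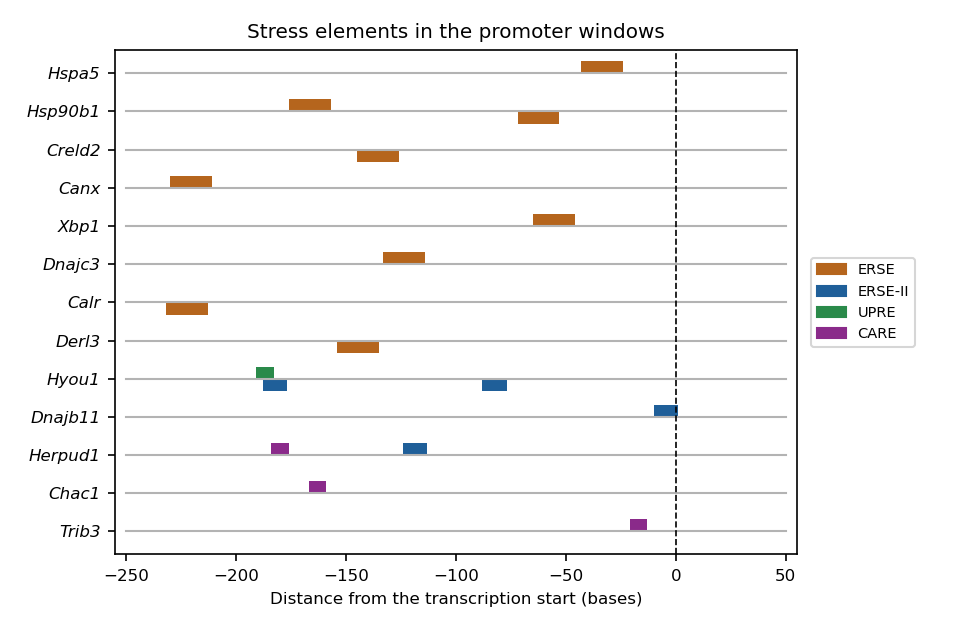
Position of each element (coloured bar) in the promoter windows of the 13 members that held one, with distance from the annotated transcription start in bases on the x axis. Bars above the line read along the gene's strand and bars below it on the opposite strand, and every site except the end of the Dnajb11 site lay before the start.

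The libraries were of even depth, with 19344893 to 19725135 estimated counts each. Together the 38 members took 14650 to 15094 TPM of a library (TPM corrects for transcript length, and each library has an equal sum), which is 1.46% to 1.51% of that sum. Chondrocyte markers were all detected but low for most genes, since Col2a1 averaged 7.72 TPM and Acan 5.11 TPM in the TNF-α group beside 1223 TPM of the fibroblast collagen gene Col1a1. The summed level of the 10 chondrocyte markers was 1690 to 1822 CPM (counts scaled to library size by TMM, not to length) in the TNF-α libraries and 1941 to 2122 CPM in the TNF-α+NFL libraries, mostly from Col11a1. The summed macrophage markers stood at 77.8 to 81.6 and 69.7 to 71.6 CPM, with Ptprc under 0.4 CPM in every library, the 5 fibroblast markers at 7397 to 8286 and 7876 to 8147 CPM, and the 5 adipocyte markers at 15.2 to 18.8 and 15.9 to 18.7 CPM. Endothelial and blood markers summed to under 1 CPM. The part of these markers in the results was not tested, and in bulk RNA fewer cells of a type and less RNA per cell cannot be told apart. On the first principal component (28.0% of the variance) TNF-α replicates 1 and 3 lay at opposite ends, at 13.3 and -19.8, with TNF-α replicate 2 at -4.27 and the TNF-α+NFL libraries at 1.29 to 6.06. TNF-α replicate 1 also had the highest level of the macrophage gene Csf1r, 2.09 CPM against 0.0506 to 0.354 CPM in the other 5 libraries. Members whose call changes without it are given both ways.

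The order of the levels, read in TPM, which is scaled to transcript length, placed the folding machinery above the sensors. The lectin chaperone Calr led with 2490 ± 37.2 TPM (SD, n = 3) under TNF-α alone and 2518 ± 8.39 TPM with NFL. P4hb and Pdia3, both disulfide isomerases, followed at 1590 ± 56.0 and 1490 ± 32.9 TPM in the TNF-α group. Hspa5, the Hsp70 of the ER, stood at 1149 ± 7.26 TPM, above Serpinh1 (969.5 ± 29.4 TPM), the collagen chaperone HSP47, and Hsp90b1 (948 ± 16.7 TPM), the Hsp90 of the ER. Of the 37 pairs of neighbours in the order of mean TPM, 23 did not overlap over the 6 libraries and 14 did, among them Serpinh1 with Hsp90b1 and Canx with Manf.

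Among the regulators, Atf4 was the highest at 527 ± 27.9 TPM, then Xbp1 at 217 ± 6.88 TPM, Ddit3 at 63.1 ± 0.687 TPM and Atf6 at 40.8 ± 5.16 TPM. The sensor kinases were lower, with Eif2ak3 at 28.1 ± 1.27 TPM and Ern1 at 8.10 ± 0.465 TPM. Ern1, Trib3 (8.84 ± 0.734 TPM) and Derl3 (2.69 ± 0.920 TPM) were the lowest members, and the ranges of Ern1 and Trib3 overlapped. Xbp1 overlapped Serp1, Atf6 overlapped Sesn2, and Eif2ak3 and Atf4 overlapped neither of their neighbours.

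**Figure D2:**
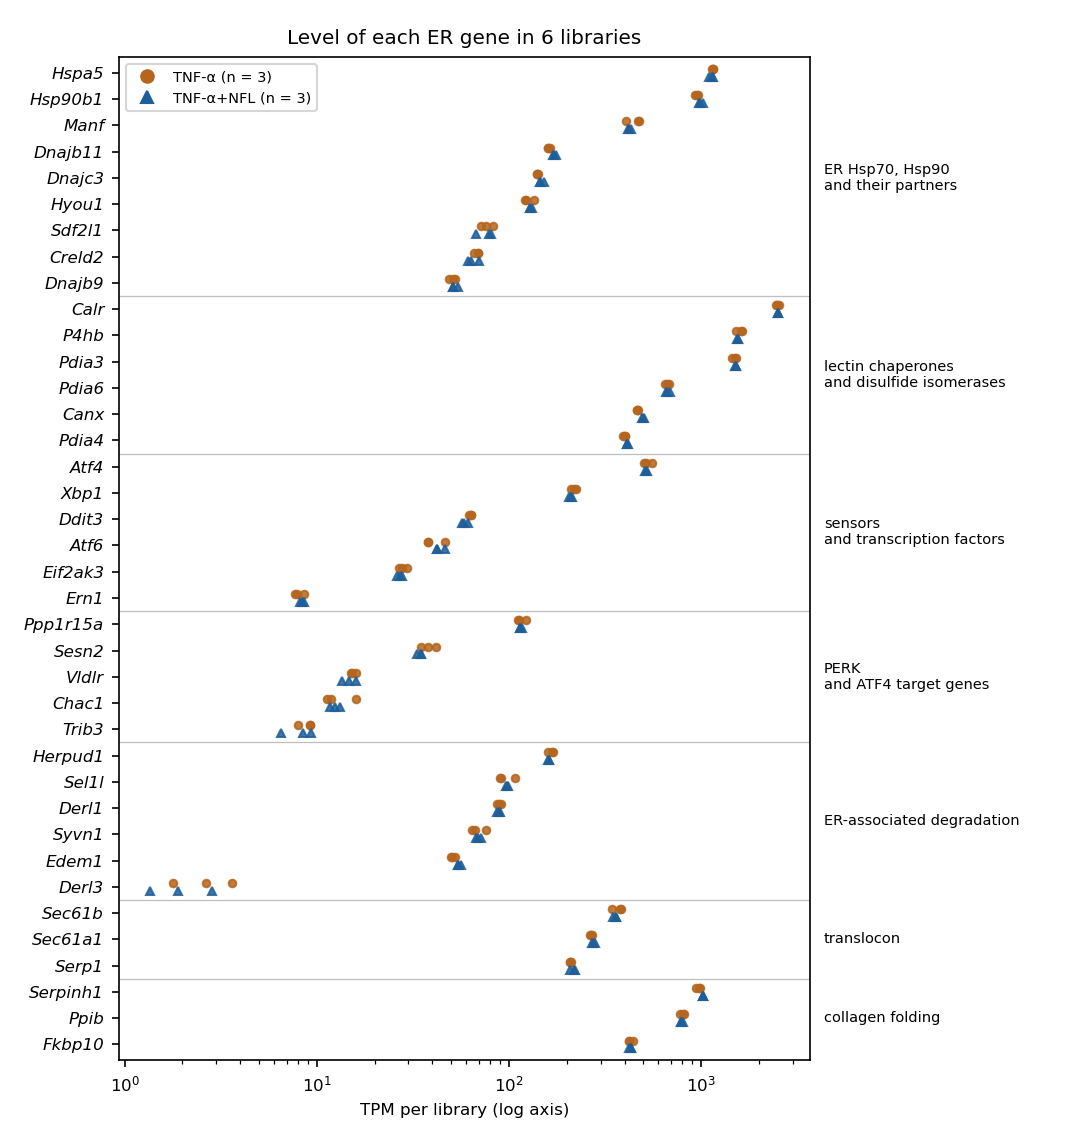
TPM of each member (log axis) in the 3 TNF-α libraries (circles) and the 3 TNF-α+NFL libraries (triangles), grouped by role. Levels ran from Derl3 at 2.69 TPM to Calr at 2490 TPM in the TNF-α group, and the symbols of both groups lay on or next to each other for nearly every gene.

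The question of the comparison was whether the ER genes differed between TNF-α-treated chondrocytes with and without the following NFL treatment. None of the 38 members passed an adjusted p of 0.05 in either direction, and the lowest adjusted p was 0.249 for Sesn2 (edgeR quasi-likelihood test). Across all genes tested, 0.408% were called higher and 0.204% lower in the TNF-α+NFL group. At an unadjusted p under 0.05, 2 members were higher (5.26%) and 2 lower (5.26%), beside 5.66% and 5.45% of all genes in those directions, and the shares of the members were near that background. The DESeq2 Wald test gave 0 adjusted calls and 2 members at an unadjusted p under 0.05, beside 5.93% of all genes.

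The sizes of the differences were small. Of the 38 log2 fold changes (TNF-α+NFL over TNF-α), 14 were above 0 and 24 below 0, with a median of -0.035 beside -0.0035 over all genes tested, of which 51.8% were below 0. This lean depended on single libraries and on the scaling. The median was -0.046 without TNF-α replicate 1 and lay nearest 0 without TNF-α replicate 3. On log2(TPM + 1), 18 members were above and 20 below 0 with a median difference of -0.0012, while the median of all genes moved to 0.024 and 38.8% of all genes were below 0. A log2 difference beyond 0.1 in either direction was seen in 8 members (21.1%) and in 34.8% of all genes. For the 36 members with at least 100 estimated counts in every library, the log2 fold change ran from -0.17 to 0.12, that is from 11.3% lower to 8.72% higher. The 95% interval of 35 members excluded a log2 change of 0.3 in either direction, and the interval of 34 members held 0.

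The groups did not overlap for 3 members that were higher in the TNF-α+NFL libraries (Dnajb11, Canx and Edem1) and for 5 that were lower (P4hb, Eif2ak3, Ddit3, Sesn2 and Herpud1). Over all genes the shares with groups that did not overlap were 8.66% higher and 8.17% lower. The corresponding shares of the members were 7.89% and 13.2%. The split by direction turned with the scaling, since in TPM the groups did not overlap for 8 members that were higher (Dnajb11, Canx, Edem1, Hsp90b1, Dnajc3, Pdia4, Sec61a1 and Serpinh1) and for 1 that was lower (Ddit3), beside 11.6% and 5.06% of all genes. Dnajb11, Canx, Edem1 and Ddit3 were the members apart on both scales. With 3 libraries against 3, the smallest p an exact two-sided permutation test can give is 0.1, which the 8 genes apart in CPM reached.

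**Figure D3:**
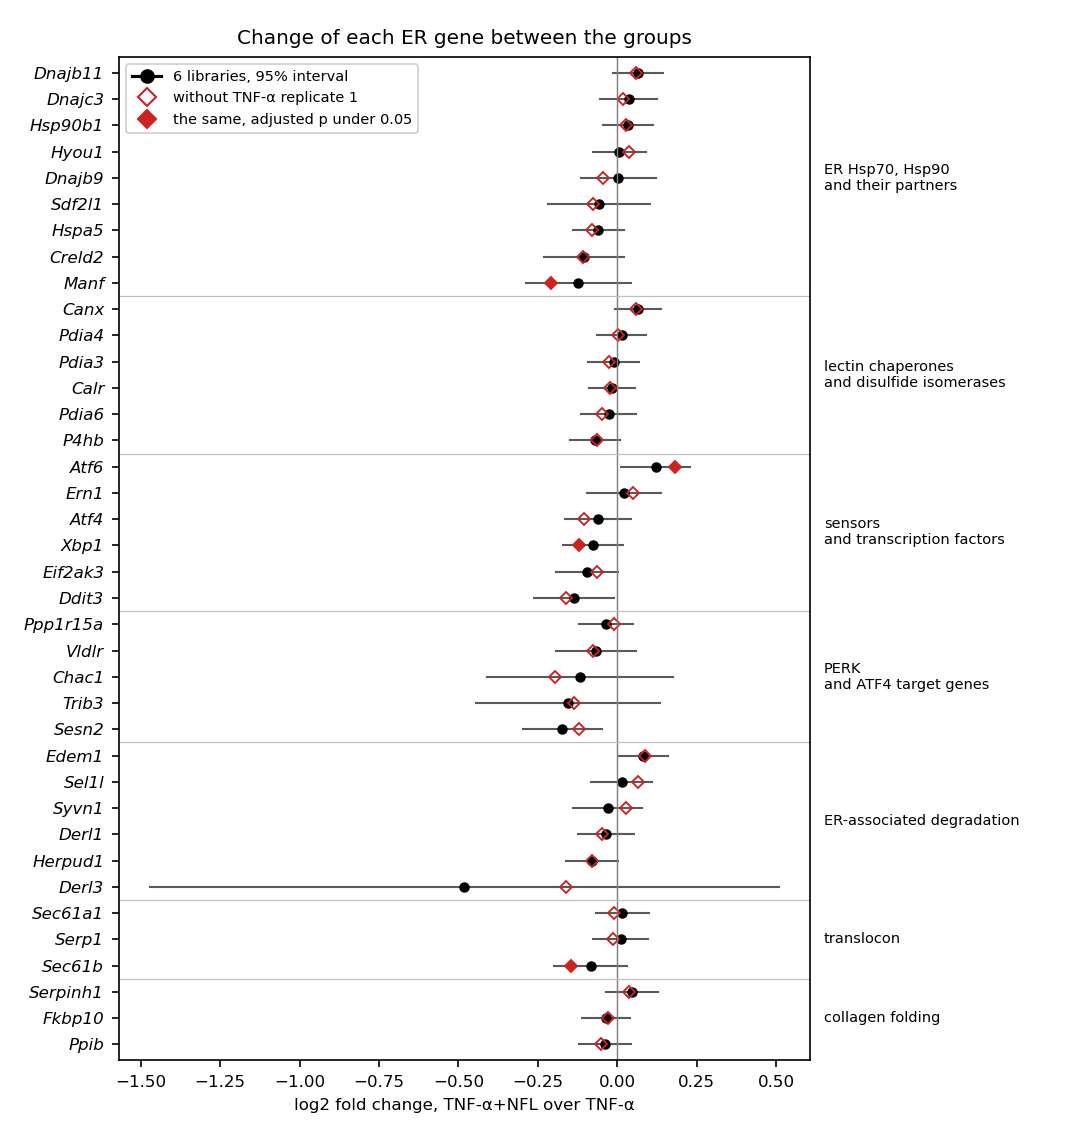
Log2 fold change (TNF-α+NFL over TNF-α) of the 38 members by role, with black points and 95% intervals from all 6 libraries and red diamonds for the value without TNF-α replicate 1. The black points of all members but Derl3 lay between -0.17 and 0.12, and filled diamonds mark Manf, Atf6, Xbp1 and Sec61b, whose adjusted p was under 0.05 without that library.

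The chaperones of the Hsp70 and Hsp90 class and their partners numbered 9, of which 5 lay above and 4 below 0, with a median log2 fold change of 0.0025, which was -0.045 without TNF-α replicate 1. Hspa5 (Entrez 25617), the sentinel gene of the response, stood at 1470, 1525 and 1551 CPM in TNF-α replicates 1, 2 and 3 and at 1486, 1454 and 1420 CPM in TNF-α+NFL replicates 1, 2 and 3. The groups overlapped through TNF-α replicate 1, and the log2 fold change was -0.060 (SE 0.037, adjusted p = 0.607). Hsp90b1 (Entrez 362862) stood at 1357, 1353 and 1398 CPM in the TNF-α libraries and at 1443, 1377 and 1387 CPM in the TNF-α+NFL libraries, which overlapped, with a log2 fold change of 0.034 (SE 0.036, adjusted p = 0.804). These are the most abundant members of their class, and both held an ERSE.

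Their helpers gave values of both signs. The J-domain proteins Dnajb11, Dnajc3 and Dnajb9, which hand clients to the Hsp70, gave log2 fold changes of 0.065, 0.037 and 0.0025. Hyou1, a large Hsp70 relative that acts as a nucleotide exchange factor, gave 0.0065, Sdf2l1 gave -0.057 and Creld2 gave -0.10. Without TNF-α replicate 1, Dnajb9 turned to -0.045, Dnajc3 gave 0.017 and Hyou1 gave 0.036.

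Manf (Entrez 315989) encodes a small secreted protein that binds the ER Hsp70 and is released on ER stress. It was at 171 CPM in TNF-α replicate 1, 206 and 210 CPM in TNF-α replicates 2 and 3, and 185, 176 and 180 CPM in the TNF-α+NFL libraries. TNF-α replicate 1 thus lay below every TNF-α+NFL library while the other 2 TNF-α libraries lay above them all. The log2 fold change was -0.12 (SE 0.072, adjusted p = 0.602) over 6 libraries and -0.21 (SE 0.034, adjusted p = 0.000571) without TNF-α replicate 1.

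The 6 lectin chaperones and disulfide isomerases, which fold glycoproteins and form disulfide bonds, showed a median of -0.014 on the log2 scale, and -0.023 without TNF-α replicate 1. Calr (Entrez 64202), the calcium-binding lectin calreticulin, stood at 2357, 2382 and 2388 CPM in the TNF-α libraries and at 2361, 2333 and 2351 CPM in the TNF-α+NFL libraries. The groups overlapped, the log2 fold change was -0.017 (SE 0.034, adjusted p = 0.916), and its 95% interval ran from -0.090 to 0.056. Its membrane-bound relative Canx was higher in all 3 TNF-α+NFL libraries, with 995 ± 9.02 against 1041 ± 3.67 CPM (SD, n = 3) and a log2 fold change of 0.065 (adjusted p = 0.526). P4hb, which is also the beta subunit of collagen prolyl 4-hydroxylase, was lower in all 3, with 2103 ± 61.9 against 2004 ± 21.1 CPM and a log2 fold change of -0.069 (adjusted p = 0.531). Pdia3, Pdia4 and Pdia6 gave -0.012, 0.014 and -0.027.

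For the 6 sensors and transcription factors the median log2 fold change was -0.069, and 2 of them lay above 0. It was -0.022 without TNF-α replicate 3. Atf6 (Entrez 304962) stood at 145, 129 and 128 CPM in the TNF-α libraries and at 142, 150 and 144 CPM in the TNF-α+NFL libraries. Of the TNF-α libraries, only replicate 1 reached the range of the other group. The log2 fold change of Atf6, 0.12 (SE 0.050, adjusted p = 0.387), was the highest of all members, and it was 0.18 (SE 0.037, adjusted p = 0.00373) without TNF-α replicate 1. On log2(TPM + 1) the difference of Edem1 (0.11) lay above that of Atf6 (0.10).

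Xbp1 (Entrez 289754) stood at 192, 207 and 213 CPM in the TNF-α libraries and at 195, 195 and 190 CPM in the TNF-α+NFL libraries. Here too TNF-α replicate 1 lay among the TNF-α+NFL libraries and the other 2 above them, and the log2 fold change was -0.078 (SE 0.044, adjusted p = 0.562). It was -0.12 (SE 0.033, adjusted p = 0.0342) without TNF-α replicate 1. Atf6 and Xbp1, which act on the same promoter elements, gave values of opposite sign, and neither passed the adjusted threshold over 6 libraries.

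Ern1 (Entrez 498013), the IRE1 kinase and nuclease, stood at 30.8, 28.6 and 29.5 CPM in the TNF-α libraries and at 30.1, 30.6 and 29.6 CPM in the TNF-α+NFL libraries. These ranges overlapped fully, with a log2 fold change of 0.022 (SE 0.054, adjusted p = 0.937). Eif2ak3 (Entrez 29702), the PERK kinase, stood at 66.3, 62.9 and 61.6 CPM in the TNF-α libraries and at 59.5, 60.4 and 58.5 CPM in the TNF-α+NFL libraries. It was lower in all 3 TNF-α+NFL libraries, with a log2 fold change of -0.096 (SE 0.045, adjusted p = 0.466).

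Downstream of PERK, Atf4 (Entrez 79255) stood at 354, 373 and 407 CPM in the TNF-α libraries and at 363, 355 and 370 CPM in the TNF-α+NFL libraries, which overlapped. The log2 fold change was -0.061 (SE 0.049, adjusted p = 0.712), and without TNF-α replicate 1 it was -0.11 (SE 0.036, adjusted p = 0.0874). Ddit3 (Entrez 29467), the CHOP gene that links prolonged stress to cell death, stood at 26.3, 27.4 and 27.8 CPM in the TNF-α libraries and at 24.5, 23.9 and 25.7 CPM in the TNF-α+NFL libraries. All 3 TNF-α+NFL values lay below the lowest TNF-α value, and the log2 fold change was -0.14 (SE 0.058, adjusted p = 0.395). The estimated counts of 8 members (Ddit3, Atf6, Canx, Pdia3, Pdia6, Sel1l, Derl3 and Ppib) were fractional in all 6 libraries, so some of their reads had been shared with other rows of the table.

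The 5 targets of PERK and ATF4 all lay below 0, with a median log2 fold change of -0.12, the lowest of the 7 role groups, which was -0.060 without TNF-α replicate 3. Over all genes 51.8% lay below 0, and of 24 further genes of the integrated stress response 13 lay below and 11 above 0, with a median of -0.012. None of the 5 targets passed the adjusted threshold, and among them the groups were apart for Sesn2 alone. None of the 24 further genes passed it either. Their groups did not overlap for 3 higher and 4 lower genes (29.2%, beside 16.8% of all genes). Sesn2 (Entrez 502988), the stress sensor sestrin 2, which restrains mTORC1, stood at 56.7, 48.8 and 53.5 CPM in the TNF-α libraries and at 47.8, 47.4 and 45.7 CPM in the TNF-α+NFL libraries. Its log2 fold change was -0.17 (SE 0.057, adjusted p = 0.249), with a 95% interval from -0.30 to -0.049. TNF-α replicate 1 was the highest library, and without it the log2 fold change was -0.12 (adjusted p = 0.169).

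Chac1 (Entrez 362196), which encodes an enzyme that degrades glutathione and is a sensitive ATF4 target, stood at 9.31, 9.16 and 13.1 CPM in the TNF-α libraries and at 10.3, 9.62 and 9.16 CPM in the TNF-α+NFL libraries. TNF-α replicate 3 stood alone above the other 5 libraries. The log2 fold change of -0.12 (SE 0.13, adjusted p = 0.819) turned to 0.073 without that library. Trib3, a pseudokinase induced by ATF4 and CHOP, Vldlr, the very low density lipoprotein receptor, and Ppp1r15a, the GADD34 subunit that directs eIF2α dephosphorylation, gave -0.16, -0.067 and -0.036, and Ppp1r15a gave -0.0089 without TNF-α replicate 1. Trib3 fell to 92 estimated counts in its lowest library, and its 95% interval ran from -0.44 to 0.13.

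Among the 6 genes of ER-associated degradation, which returns misfolded proteins to the cytosol for the proteasome, the median log2 fold change was -0.033, and -0.010 without TNF-α replicate 1. Herpud1 (Entrez 85430), a membrane protein of the degradation complex, stood at 157, 160 and 154 CPM in the TNF-α libraries and at 150, 148 and 148 CPM in the TNF-α+NFL libraries. All TNF-α+NFL libraries lay below the TNF-α libraries, with a log2 fold change of -0.080 (SE 0.038, adjusted p = 0.462). Edem1 (Entrez 297504), which trims mannose from misfolded glycoproteins, stood at 152, 150 and 150 CPM in the TNF-α libraries and at 157, 162 and 158 CPM in the TNF-α+NFL libraries. It was higher in all 3, with a log2 fold change of 0.080 (SE 0.037, adjusted p = 0.446).

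The ubiquitin ligase of the pathway and its adaptor, Syvn1 and Sel1l, gave -0.030 and 0.014, and the channel gene Derl1 gave -0.035. Without TNF-α replicate 1, Syvn1 turned to 0.028, Sel1l gave 0.064 and Derl1 gave -0.049. Derl3 had the lowest log2 fold change of all members, -0.48 (SE 0.42, adjusted p = 0.757), but it held 17.95 estimated counts in its lowest library. Without TNF-α replicate 1 the value was -0.16 and that of Manf was lower. Its levels ran from 1.57 to 3.24 CPM in the TNF-α libraries and from 0.919 to 2.66 CPM in the TNF-α+NFL libraries, and a change was not detectable at this depth.

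The translocon genes, which bring nascent chains into the ER, gave a median log2 fold change of 0.010, with 0.016 for the channel subunit Sec61a1 and 0.010 for Serp1. Without TNF-α replicate 1 the median was -0.013, Sec61a1 gave -0.010 and Serp1 gave -0.013. Sec61b (Entrez 298068), the beta subunit of the channel, stood at 92.6, 104 and 107 CPM in the TNF-α libraries and at 93.7, 96.1 and 97.03 CPM in the TNF-α+NFL libraries. TNF-α replicate 1 was again the lowest library. The log2 fold change was -0.084 (SE 0.053, adjusted p = 0.613), and it was -0.14 (SE 0.039, adjusted p = 0.0272) without that library.

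The 3 collagen folding genes, which serve the triple helix of procollagen, gave a median log2 fold change of -0.035. Serpinh1 (Entrez 29345) stood at 999, 987 and 1057 CPM in the TNF-α libraries and at 1048, 1042 and 1051 CPM in the TNF-α+NFL libraries. On this scale the TNF-α+NFL values lay within the range of the TNF-α values, and the log2 fold change was 0.046 (SE 0.038, adjusted p = 0.719). The prolyl isomerases Fkbp10 and Ppib gave -0.035 and -0.039, with adjusted p values of 0.792 and 0.781.

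The calls depended on TNF-α replicate 1. Without that library 1 member was called higher, Atf6, and 3 were called lower, Manf, Xbp1 and Sec61b, at an adjusted p of 0.05. Manf and Sec61b are given in full for this reason, chosen after their values were seen. Over the 13409 genes tested without that library, 3.43% were called higher and 3.51% lower. At an unadjusted p under 0.05 there were 12 members, beside 20.3% of all genes. The median coefficient of variation of the members among the TNF-α libraries was 3.40% with TNF-α replicate 1 and 1.96% without it, and it was 1.86% in the TNF-α+NFL group. Over all genes tested these values were 6.31%, 4.0002% and 4.65%. TNF-α replicate 1 was the library farthest from the gene's median for 12 members (31.6%, beside 23.2% of all genes) and TNF-α replicate 3 for 13 members (34.2%, beside 22.3%).

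**Figure D4:**
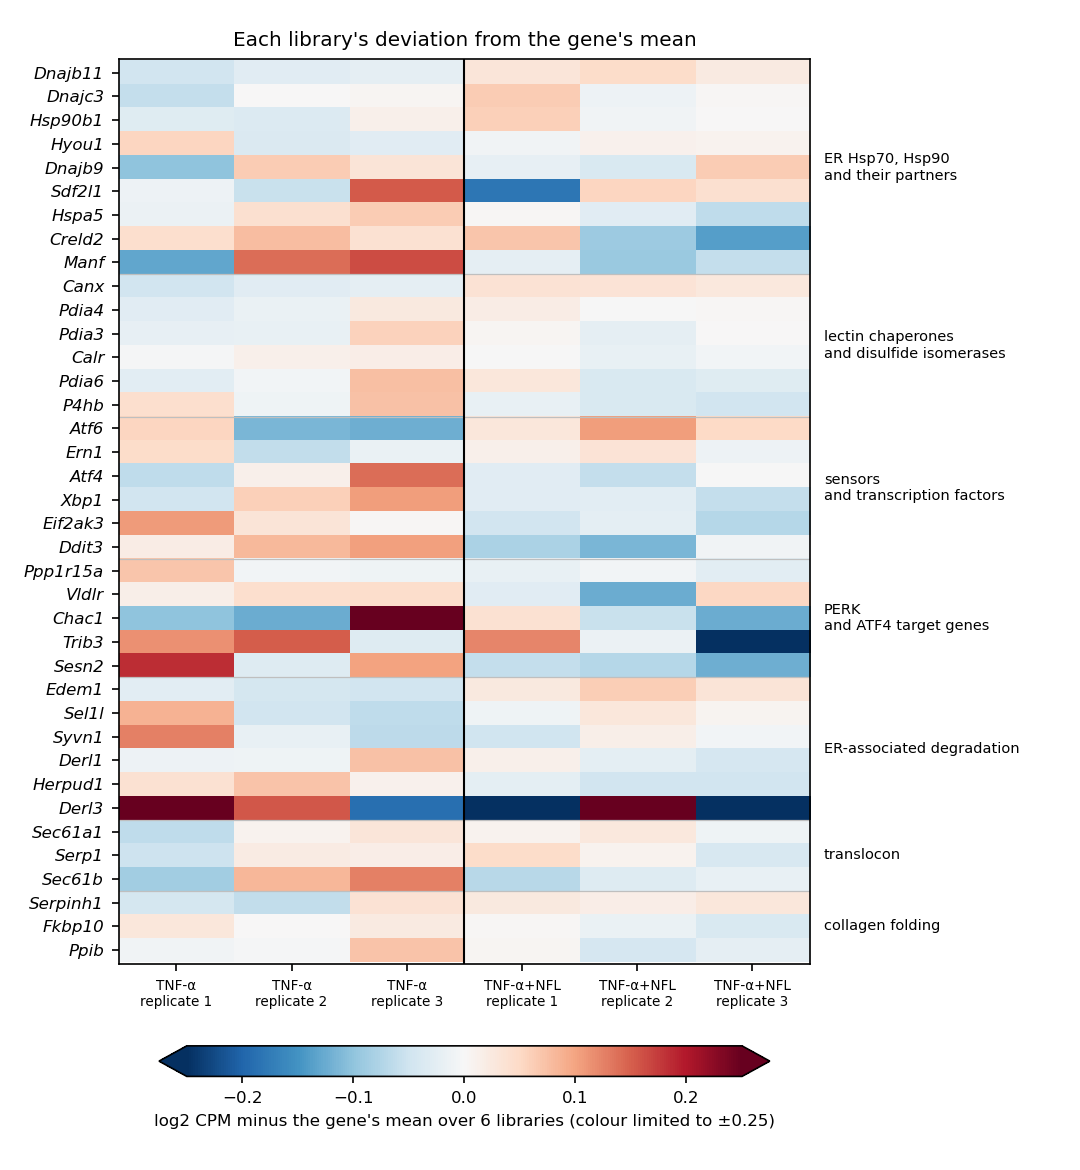
Deviation of each library (columns) from each member's mean log2 CPM (rows by role, blue below and red above the mean, colour limited to a log2 difference of 0.25). In the rows of Manf, Xbp1 and Sec61b the column of TNF-α replicate 1 is blue and those of TNF-α replicates 2 and 3 are red, and in the row of Atf6 the colours are the opposite.

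The elements in the promoters were set beside the changes. For the 11 members with an ERSE or ERSE-II the median log2 fold change was -0.017, with 6 below and 5 above 0, and none was under an unadjusted p of 0.05. The 19 members with a window but neither element had a median of -0.057, with 13 below and 6 above 0, and 3 were under an unadjusted p of 0.05. Over all genes, 51.8% lay below 0 and 11.1% were under that p, so 3 of 19 is near the background. The 3 members with a CARE (Chac1, Trib3 and Herpud1) were all below 0 over 6 libraries, with values from -0.16 to -0.080, and Chac1 turned to 0.073 without TNF-α replicate 3.

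A further 131 genes of the ER pathways were tested, covering folding and oxidation, glycoprotein quality control, translocation, degradation, the integrated stress response and the remaining signaling branches. None passed the adjusted threshold by edgeR or by the DESeq2 Wald test, while 2 were higher and 7 lower at an unadjusted p under 0.05 by edgeR (9 genes, 6.87%, beside 11.1% of all genes) and 7 by DESeq2, beside the 5.93% of all genes. Their median log2 fold change was -0.0063. The 3 with the smallest p among those above 0 were Nupr1, a stress-induced chromatin protein and an ATF4 target (0.19, adjusted p = 0.168), Calu, the calcium-binding protein calumenin (0.097, adjusted p = 0.316), and Slc7a11, the cystine transporter subunit and likewise an ATF4 target (0.21, adjusted p = 0.485).

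In the other direction these were Gadd45a, a growth arrest gene (-0.16, adjusted p = 0.153), Shmt2, the mitochondrial serine hydroxymethyltransferase and an ATF4 target (-0.13, adjusted p = 0.166), and Nfe2l2, the gene of the antioxidant factor NRF2 (-0.13, adjusted p = 0.191). Without TNF-α replicate 1, 3.43% of all genes were called higher and 3.51% lower. Of the 131 other ER pathway genes, 1 was then called higher, Nupr1, and 5 lower, Gadd45a, Shmt2, Nfe2l2, Cnpy2 and Sec61g. Of these genes, Gadd45a stood at 145 ± 7.198 against 130 ± 2.12 CPM (SD, n = 3) over all 6 libraries, and Nupr1 at 31.4 ± 0.954 against 35.8 ± 0.994 CPM.

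**Figure D5:**
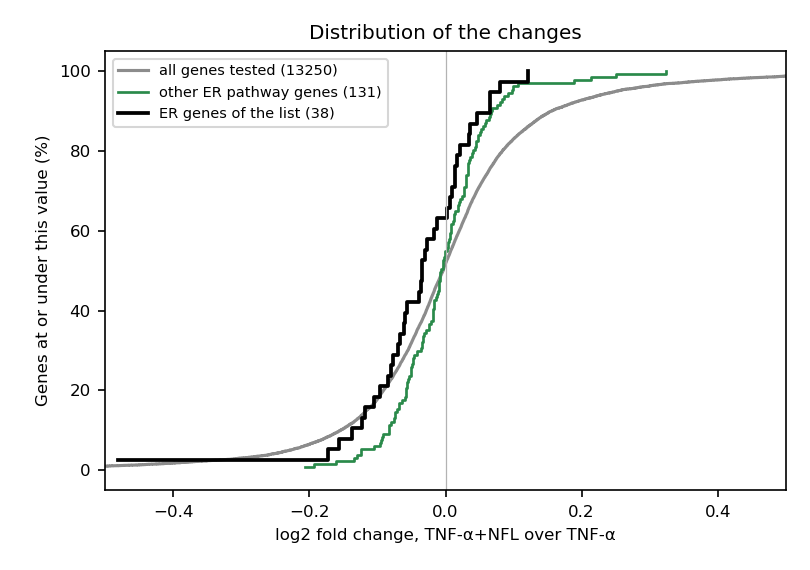
Cumulative share of genes (%) by log2 fold change (TNF-α+NFL over TNF-α) for the 38 members (black), the 131 other ER pathway genes (green) and all 13250 genes tested (grey), on an axis limited to -0.5 to 0.5. The curves cross 50% at medians of -0.035, -0.0063 and -0.0035, and the members' curve lies within a log2 change of 0.2 of 0 except for Derl3.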

How the data were processed

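RNA selected with oligo(dT) was sequenced as single-end 50-base reads. The submitters' processing notes name HISAT2 2.0.4, Bowtie2 2.2.5, RSEM 1.2.12 and the build Rnor_6.0. Estimated counts from RSEM were deposited without normalization, and 27.28% to 27.96% of the genes of a library had a fractional value. TPM and FPKM values were deposited for the same libraries. The deposited TPM values served to compare levels between genes, and the FPKM values were not used here.

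Groups and directions follow the sample labels and the column names, and not the headings of the study's supplementary table. Estimated counts were rounded, filtered with filterByExpr, scaled by TMM and tested with edgeR 4.0.16 (robust quasi-likelihood, R 4.3.3), with Benjamini-Hochberg adjustment over 13250 genes. CPM are TMM-scaled. Alternatives were DESeq2 1.42.0, other filters and size factors, a replicate block and each library left out. Replicate p-values measure the spread between these samples. The study describes the libraries of a group as independent biological replicates. The sample labels give only a number, so how far this spread is technical is not known. Same-numbered libraries deviated together with r = -0.011, -0.024 and 0.08, so numbers were not taken as pairs.

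The members and gene lists were chosen with earlier results of these data known. Every member is accounted for by role. Given in full were 12 members listed in the naming rule (Hspa5, Hsp90b1, Calr, Xbp1, Atf4, Atf6, Ern1, Eif2ak3, Ddit3, Herpud1, Serpinh1 and Chac1) and members under an unadjusted p of 0.05 whose groups did not overlap. Of the other pathway genes, the 3 with the smallest p in each direction are named. Elements were searched in RefSeq promoter windows on GRCr8, matched by gene identifier.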

Additional observations from a re-analysis of the deposited data

How the results depend on the processing

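No member was called under any alternative except without TNF-α replicate 1. Leaving out 1 library at a time gave 0 to 1 members called higher and 0 to 3 lower, 0 to 1 of the other ER pathway genes higher and 0 to 5 lower, 9 to 18 members with groups that did not overlap (23.7% to 47.4%, beside 24.1% to 37.1% of all genes), and a median log2 fold change of the members from -0.046 to -0.0076 (nearest 0 without TNF-α replicate 3). Over all genes it gave 5 to 460 called higher and 0 to 470 lower, the most without TNF-α replicate 1 and the fewest without TNF-α+NFL replicate 1, beside 54 and 27 with all 6. Without the filter on low counts 84 and 48 genes were called, and the DESeq2 Wald test called 46 lower. The replicate block, for numbers that share no stated pairing, called 25 and 9 genes and no member. Of the 38 members, 27 kept their sign in all 11 alternatives. Among these alternatives the others reversed when a library was left out, with log2 fold changes from -0.0065 to 0.036 for Hyou1, -0.045 to 0.039 for Dnajb9, -0.098 to 0.017 for Sdf2l1, -0.025 to 0.016 for Pdia3, -0.047 to 0.0061 for Pdia6, -0.00039 to 0.051 for Ern1, -0.21 to 0.073 for Chac1, -0.011 to 0.064 for Sel1l, -0.068 to 0.028 for Syvn1, -0.010 to 0.038 for Sec61a1 and -0.013 to 0.034 for Serp1. The cause was not tested. In log2(TPM + 1), a scaling for counts of members added after the data were seen, Calr (0.017), Pdia3 (0.022), Pdia6 (0.0064) and Syvn1 (0.013) turned sign, the members' median difference was -0.0012, the groups did not overlap for 8 higher and 1 lower member beside 3 and 5 in CPM, and the members' mean level differed by -0.0063 beside -0.040 in log2 CPM. With 3 libraries a group, the 95% interval of members with at least 100 counts reached a median of 0.088 to either side on the log2 scale. This interval is per gene and not adjusted for the number of genes tested, and much smaller differences were not detectable. Larger differences also failed the adjusted threshold, as Sesn2 did at -0.17 (adjusted p = 0.249, edgeR quasi-likelihood test). The lack of calls therefore does not exclude differences of that size.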
